A study of Mus musculus with 6 samples.

Results

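The proteasome is the barrel-shaped protease that degrades proteins tagged with ubiquitin in the cytosol and nucleus of every cell. Its core particle is built of stacked rings of alpha and beta subunits, and 3 of the beta subunits carry the catalytic sites inside the barrel. The regulatory particle caps the barrel. Its base holds a ring of ATPases that unfold the substrate and feed it in, and its lid removes the ubiquitin chain. The transcription factor NFE2L1, which is set free when proteasome activity is short, raises genes of both core and regulatory subunits. Liver uses the proteasome heavily, among other tasks to degrade apolipoprotein B and misfolded secretory proteins.

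The genes described here are those whose symbol begins with Psm, a letter from a to g and a digit. The interferon-inducible subunits Psmb8, Psmb9 and Psmb10 and the activator genes Psme1 and Psme2 were left out by the same rule. Each gene was read from its brightest probe among those annotated with exactly 1 symbol. This gave 44 genes of 22180 with a probe of their own. They comprise 13 core subunits, 17 regulatory particle subunits and 14 others. The others are assembly chaperones, alternative caps, an inhibitor, tissue-restricted paralogues and 2 further genes that are not subunits, Psmc3ip and Psme3ip1. Of the 14 core subunits, Psma4 has only probes that carry a second symbol, and it was not analysed here. Of the 44, 42 passed the filter on dim probes, a mean over the 6 arrays of at least 2.65 on the log2 scale, and were compared among 13493 genes. The other 2 were Psma5 and Psmb11.

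The livers came from male C57BL/6 mice, 8 weeks old at acclimatization, which received either vehicle or Vascepa for 7 days and then a high-fat diet for 6 weeks. Vascepa is a medicine made of icosapent ethyl, an ethyl-esterified eicosapentaenoic acid, which is an omega-3 fatty acid. The vehicle_HFD and the Vascepa_HFD group had 3 arrays each, both groups ate the high-fat diet, and no group without that diet was analysed here. The labels give no dose, and no label ties the 3 samples of a group to separate animals. Each p-value therefore rests on the scatter among these samples alone, and part of that scatter may be technical. Total RNA from whole pieces of liver was hybridised to Affymetrix arrays, and the authors deposited log2 values made with RMA. In such tissue, fewer cells of a type and less RNA per cell cannot be told apart.

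Pairs of arrays correlated at r of 0.906 to 0.986 over the 13493 genes, and Vascepa replicate 3 stood farthest from the rest, with a mean r of 0.938. The mean level of 75 small nucleolar RNA probes was 5.57, 6.36 and 5.79 on vehicle replicates 1, 2 and 3. It was 5.42, 6.48 and 7.01 on Vascepa replicates 1, 2 and 3. Hepatocyte markers were present on every array, with Alb, the albumin gene, between 13.18 and 13.33. All 9 hepatocyte markers with a probe of their own were tested, and their median deviation from the vehicle mean ranged from −0.036 to 0.016 on the vehicle arrays and was 0.026, −0.097 and −0.46 on Vascepa replicates 1, 2 and 3. The dimmest marker listed for any cell type was Prss2, of the pancreas, between 1.03 and 1.22. Of 7 pancreatic acinar markers listed, 2 were tested. Both were higher in Vascepa livers, with a median log2 difference of 0.40 from vehicle. Of 7 skeletal muscle markers 5 were tested, 4 higher and 1 lower, with a median of 0.41. The part of such tissue in these samples was not tested.

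No proteasome gene passed the threshold for a difference between Vascepa and vehicle livers, set at a Benjamini-Hochberg adjusted p under 0.05 in limma, and neither did any other gene (0 of 42 members and 0.0% of the 13493 genes). At an unadjusted p under 0.05 there was 1 of 42 members, Psmg1, a chaperone of core assembly, which was lower in Vascepa livers. Of all genes 2.68% were at that level, 1.64% lower and 1.04% higher. The groups did not overlap in 2 members, Psmg1 and Psmd5, both lower in Vascepa livers. Of all genes 8.24% had no overlap, 5.11% lower and 3.13% higher. Without Vascepa replicate 1, 5 of 42 members reached an unadjusted p under 0.05 (Psmd3, Psmd5, Psme3, Psme3ip1 and Psmg1), as did 14.96% of all genes. The median difference, Vascepa minus vehicle, was −0.024 on the log2 scale over the 42 members and −0.063 over all genes tested, and 19 members were higher and 23 lower in the mean. The plot of differences shows how few bars clear 0.

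**Figure D1:**
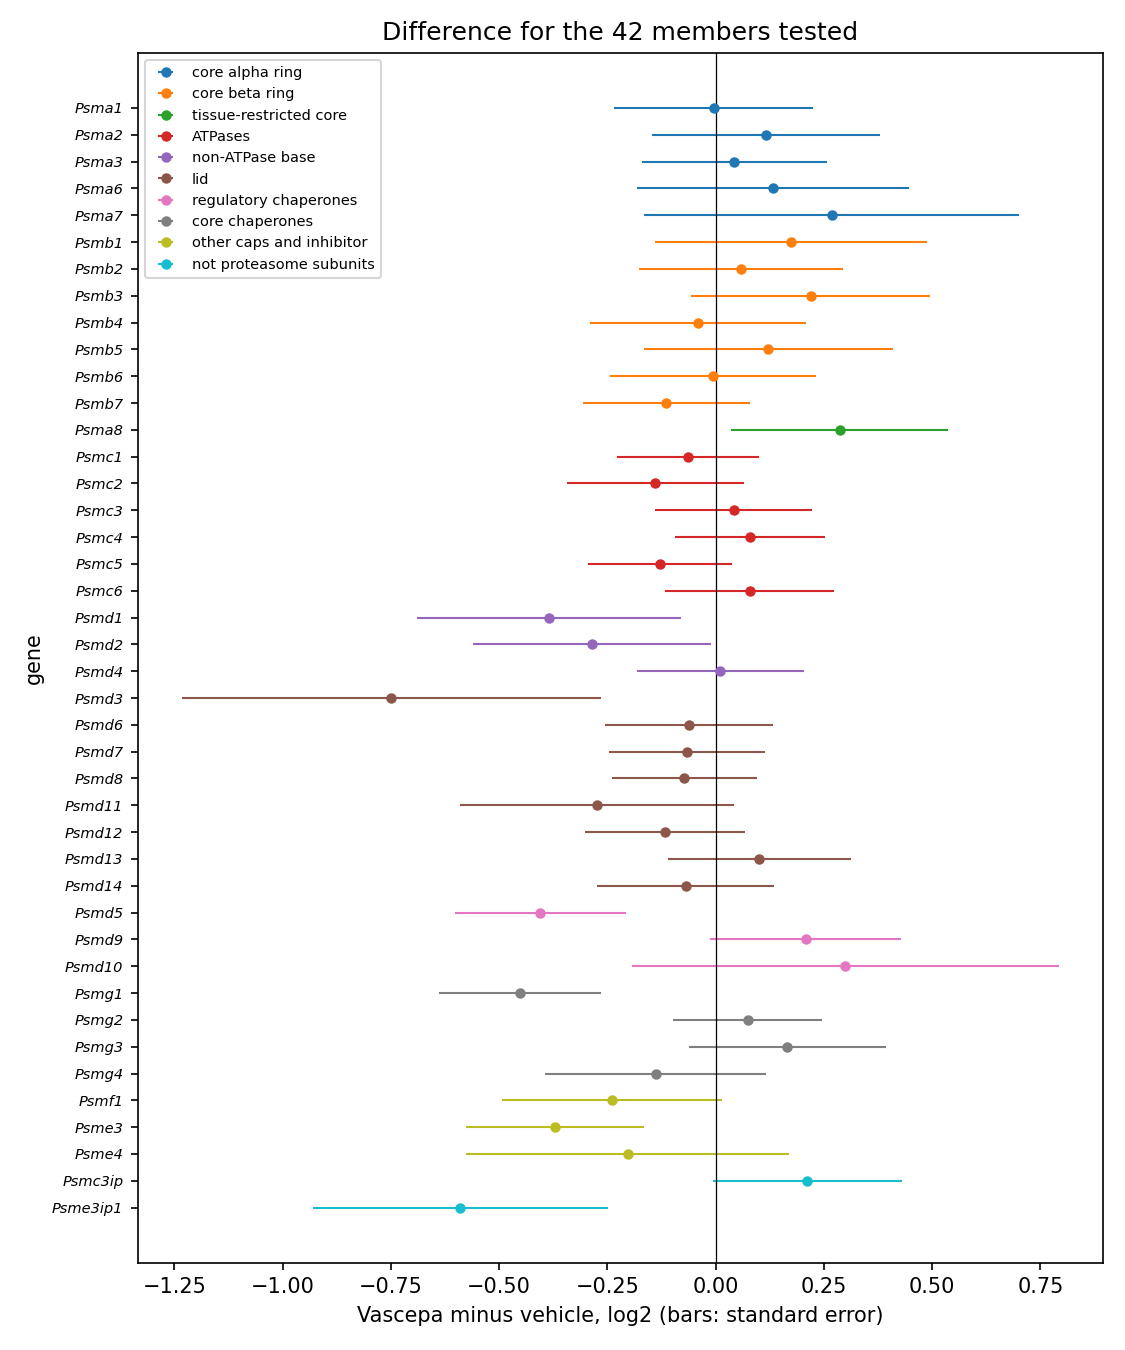
Difference between group means (Vascepa minus vehicle, log2 scale, horizontal axis) for each of the 42 members tested, coloured by role, with bars of 1 standard error from limma. Most bars cross 0. The lowest point is Psmd3 at −0.75, with a wide bar, and Psmg1 lies at −0.45.

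What the core subunits showed in common was a spread between arrays that ran across both groups. On vehicle replicates 1, 2 and 3 the median deviation of the 12 core subunits tested from their vehicle means was −0.24, 0.26 and −0.029. On Vascepa replicates 1, 2 and 3 it was −0.39, 0.16 and 0.39. The arrays numbered 1 were therefore low and Vascepa replicate 3 high, and the groups overlapped throughout. All 12 core subunits had their lowest value on Vascepa replicate 1, as 18.2% of all genes tested had. In all 12, vehicle replicate 1 and Vascepa replicate 1 were both below vehicle replicate 2, Vascepa replicate 2 and Vascepa replicate 3. That order was found in 19.3% of all genes and in 58 of 67 small nucleolar RNA genes tested (86.6%). These orders were looked for after the values had been seen, and they carry no test.

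The regulatory particle did not move as a block. The median deviation of its 17 subunits was −0.014, 0.0040 and 0.045 on vehicle replicates 1, 2 and 3, and −0.024, −0.019 and −0.12 on Vascepa replicates 1, 2 and 3. Over all genes tested the same medians were 0.012, −0.014 and 0.015 for vehicle and 0.019, −0.046 and −0.12 for Vascepa, close to those of the particle. The order seen in every core subunit was found in 7 of the 17. In 8 of the 17 the step went the other way in both groups, with vehicle replicate 2 below vehicle replicate 1 and Vascepa replicate 3 below Vascepa replicate 1, as in 39.1% of all genes tested. Outside the 2 particles, Psmd9, Psmd10, Psmg3 and Psma8 also had the order of the core subunits. It was found in 23 of the 42 members tested (54.8%).

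**Figure D2:**
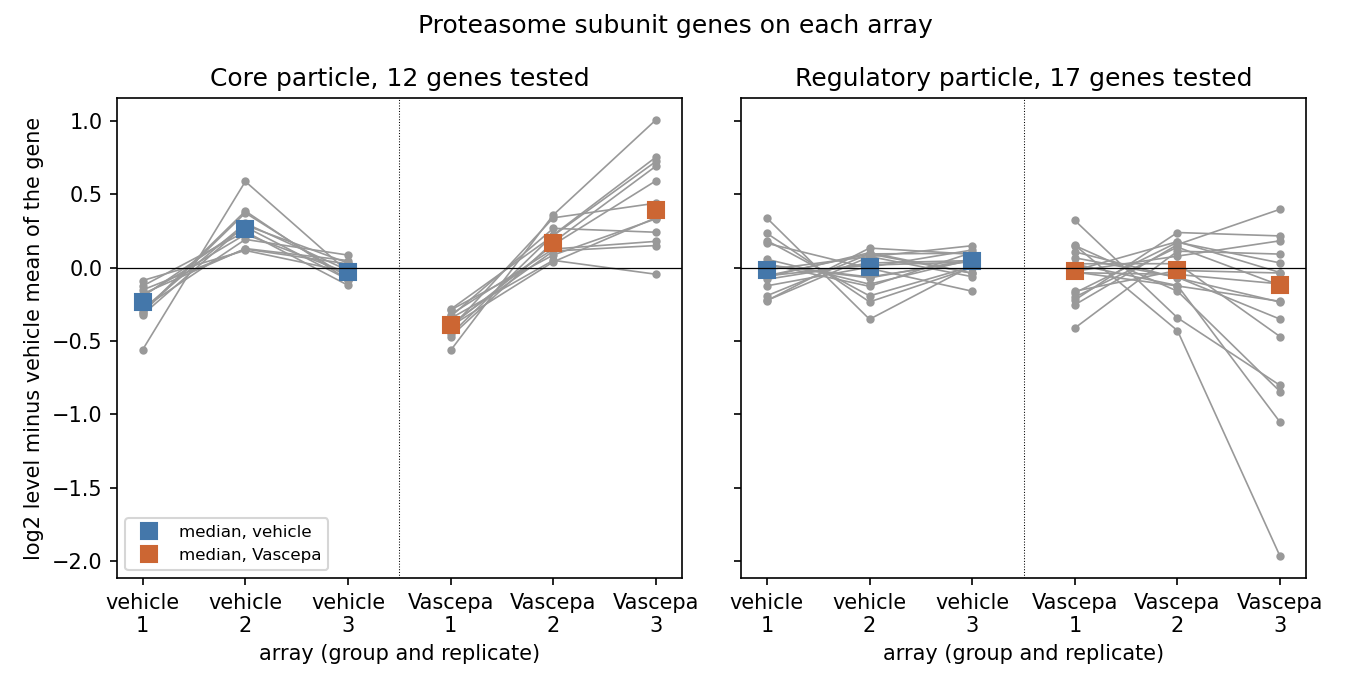
Log2 level of each subunit gene minus its vehicle mean (vertical axis) on the 6 arrays (horizontal axis), for 12 core and 17 regulatory particle genes. Grey lines follow 1 gene within a group, where the replicates have no order, and squares are the medians, from −0.39 to 0.39 in the core and from −0.12 to 0.045 in the regulatory particle.

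Between the particles, the gap per array was wider within each group than between the groups. The core median minus the regulatory median was −0.22, 0.26 and −0.075 on vehicle replicates 1, 2 and 3, a mean of −0.013 ± 0.25 (SD, n = 3). It was −0.37, 0.18 and 0.51 on Vascepa replicates 1, 2 and 3, a mean of 0.11 ± 0.44 (SD, n = 3). The lowest and the highest of the 6 arrays were both from Vascepa livers. Ordered by small nucleolar RNA level, the arrays run Vascepa replicate 1, vehicle replicate 1, vehicle replicate 3, vehicle replicate 2, Vascepa replicate 2 and Vascepa replicate 3. The core medians follow that order except that vehicle replicate 2 lies above Vascepa replicate 2. The part of RNA composition or array quality in this pattern was not tested beyond a fit with the small RNA level as a covariate. In that fit the difference was below 0 in all 12 core subunits, with a median of −0.14, in place of 8 higher and 4 lower with a median of 0.088. The covariate itself differed between the groups. Of 67 small nucleolar RNA genes tested, 60 were higher and 7 lower in Vascepa livers, with a median difference of 0.45. The fit therefore cannot separate the group from the small RNA level.

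**Figure D3:**
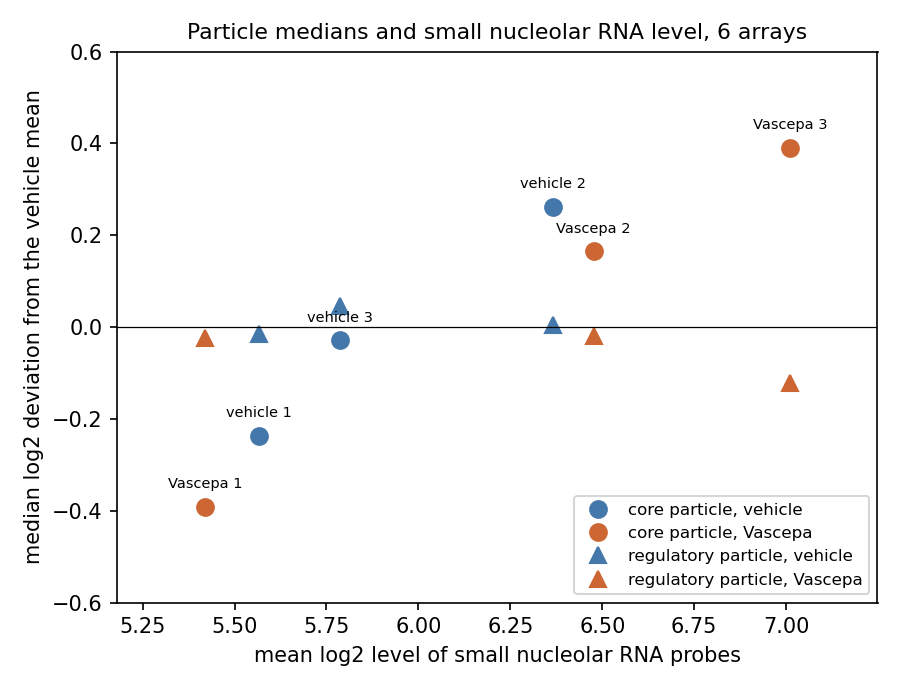
Median deviation from the vehicle mean of the core (circles) and the regulatory particle (triangles) against the mean log2 level of 75 small nucleolar RNA probes, 1 pair of points per array. Core medians run from −0.39 at a small RNA level of 5.42 to 0.39 at 7.01, while regulatory medians stay between −0.12 and 0.045.

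The alpha ring forms the gate of the barrel. Of its 7 subunits, 5 were tested, 4 of them higher and 1 lower in the mean, with a median difference of 0.12. Psma7 had the widest spread of the ring, at 7.11, 8.25 and 7.64 in vehicle and 7.10, 8.02 and 8.67 in Vascepa livers. The arrays numbered 1 were lowest in both groups and the groups overlapped, with a difference of 0.27 ± 0.43 (SE; limma, adjusted p = 0.976). Psma2 was at 8.05, 8.26 and 8.11 in vehicle and 7.74, 8.29 and 8.73 in Vascepa livers, a difference of 0.12 ± 0.26. Its vehicle arrays lay within the range of the Vascepa arrays. Psma1, Psma3 and Psma6 differed by −0.0047 ± 0.23, 0.043 ± 0.21 and 0.13 ± 0.31. Psma5, a ubiquitous alpha subunit, has 2 probes on this array, both dim. The brighter of them read 2.05, 2.10 and 2.46 in vehicle and 2.52, 2.05 and 2.05 in Vascepa livers, below the filter, so these probes give no usable level of this subunit.

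The catalytic subunits of the beta ring cleave the substrate. In all 3 the array numbered 1 was the lowest of its group, but Psmb7 was not high on Vascepa replicate 3. Psmb5, which carries the chymotrypsin-like site, read 6.79, 7.47 and 7.03 in vehicle and 6.68, 7.43 and 7.53 in Vascepa livers. Psmb6, with the caspase-like site, read 7.73, 8.10 and 7.73 in vehicle and 7.45, 7.89 and 8.19 in Vascepa livers. Psmb7, with the trypsin-like site, read 8.23, 8.53 and 8.45 in vehicle and 8.06, 8.45 and 8.36 in Vascepa livers. In each of the 3, Vascepa replicate 1 was the lowest array and the groups overlapped. Their differences were 0.12 ± 0.29, −0.0065 ± 0.24 and −0.11 ± 0.19 (SE; limma, adjusted p = 0.976, 0.998 and 0.976).

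The other beta subunits are structural. Psmb3, the member of the ring with the smallest p, read 4.09, 4.51 and 4.25 in vehicle and 4.0, 4.50 and 5.01 in Vascepa livers, a difference of 0.22 ± 0.28. Only Vascepa replicate 3 stood above the vehicle range. Psmb1, Psmb2 and Psmb4 differed by 0.17 ± 0.31, 0.059 ± 0.24 and −0.041 ± 0.25. Of the 7 beta subunits 4 were higher and 3 lower in the mean, with a median of 0.059.

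Single arrays decided the direction of the core. Of the 12 core subunits 8 were higher in Vascepa livers with all arrays, 0 without Vascepa replicate 3, 12 without Vascepa replicate 1, 3 without vehicle replicate 1 and 11 without vehicle replicate 2. Rescaling moved the count too, to 6 with each array centred on its median and 11 with quantile normalization again. The median core difference of 0.088 became −0.11 without Vascepa replicate 3 and 0.31 without Vascepa replicate 1. The direction of the core therefore cannot be given from these 6 arrays.

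The regulatory base holds the ATPase ring, which unfolds substrates. Its 6 genes had a median range over the 6 arrays of 0.34, against 0.81 in the core and 0.78 over all genes tested. Psmc5 read 6.77, 6.69 and 6.80 in vehicle and 6.72, 6.63 and 6.52 in Vascepa livers, a difference of −0.13 ± 0.17. Psmc2 read 7.62, 7.47 and 7.70 in vehicle and 7.62, 7.62 and 7.13 in Vascepa livers, a difference of −0.14 ± 0.20. Both groups overlapped in these genes, and Vascepa replicate 3 was the lowest array in each. Psmc1, Psmc3, Psmc4 and Psmc6 differed by −0.064 ± 0.16, 0.042 ± 0.18, 0.079 ± 0.17 and 0.078 ± 0.19, so 3 of the 6 were higher and 3 lower.

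The non-ATPase part of the base holds the large scaffold subunits Psmd1 and Psmd2, which bind ubiquitin carriers, and the ubiquitin receptor Psmd4. Psmd1 read 7.83, 7.36 and 7.60 in vehicle and 7.62, 7.48 and 6.54 in Vascepa livers, a difference of −0.38 ± 0.30. Psmd2 read 7.98, 7.60 and 7.80 in vehicle and 7.95, 7.63 and 6.95 in Vascepa livers, a difference of −0.29 ± 0.28. In both scaffolds Vascepa replicates 1 and 2 lay within the vehicle range and Vascepa replicate 3 lay below it. Without that array the differences were −0.049 and −0.0052. Psmd4 differed by 0.011 ± 0.19.

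The lid carries Psmd14, the deubiquitinase of the particle, and its scaffold subunits. Of its 8 genes 7 were lower and 1 higher in the mean, with a median of −0.071. Psmd3 had the largest difference of all members in size, and read 6.24, 6.06 and 5.91 in vehicle and 6.22, 5.64 and 4.10 in Vascepa livers. Vascepa replicate 1 was within the vehicle range, Vascepa replicate 2 below it and Vascepa replicate 3 far below, which gave a difference of −0.75 ± 0.48 (SE; limma, adjusted p = 0.976). Without Vascepa replicate 3 it was −0.14, and without Vascepa replicate 1 it was −1.20. Psmd11, a lid subunit, read 8.14, 7.45 and 7.81 in vehicle and 8.12, 7.46 and 7.00 in Vascepa livers, a difference of −0.27 ± 0.32. Only Vascepa replicate 3 was below the vehicle range, and without it the difference was −0.010.

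The remaining lid genes differed by less than their standard errors. Psmd6, Psmd7 and Psmd8 were at −0.061 ± 0.19, −0.066 ± 0.18 and −0.072 ± 0.17. Psmd12, Psmd13 and Psmd14 were at −0.12 ± 0.18, 0.10 ± 0.21 and −0.069 ± 0.20. Over the whole regulatory particle 5 genes were higher and 12 lower, with a median of −0.069, beside −0.063 over all genes tested and 60.1% of all genes below 0. Without Vascepa replicate 3, 7 of the 17 were higher and the median was −0.010. With centred arrays 3 were higher, and 8 with quantile normalization again.

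Assembly chaperones guide subunits into place and are not part of the finished particle. Psmg1 pairs with Psmg2 to assemble the alpha ring. Psmg1 read 6.00, 6.22 and 6.35 in vehicle and 5.85, 5.56 and 5.80 in Vascepa livers. All 3 Vascepa arrays lay below all 3 vehicle arrays, and the order of the arrays was not that of the core subunits. The mean was 6.19 ± 0.18 in vehicle and 5.74 ± 0.15 in Vascepa livers (SD, n = 3 each), a difference of −0.45 ± 0.19 (SE; limma, unadjusted p = 0.0425, adjusted p = 0.976). When single arrays were left out the difference ranged from −0.55 to −0.36, and with the small RNA level as a covariate it was −0.45. The unadjusted limma p was 0.101 without vehicle replicate 2, 0.148 without vehicle replicate 3 and 0.136 without Vascepa replicate 2. Its partner Psmg2 differed by 0.074 ± 0.17. Psmg3 read 3.97, 4.37 and 4.11 in vehicle and 3.93, 4.55 and 4.47 in Vascepa livers, a difference of 0.16 ± 0.23 with overlapping groups. Psmg4 differed by −0.14 ± 0.25. Its mean over the 6 arrays was 2.73, near the filter level, and Vascepa replicates 1 and 2 read 2.32 and 2.46, below that level.

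**Figure D4:**
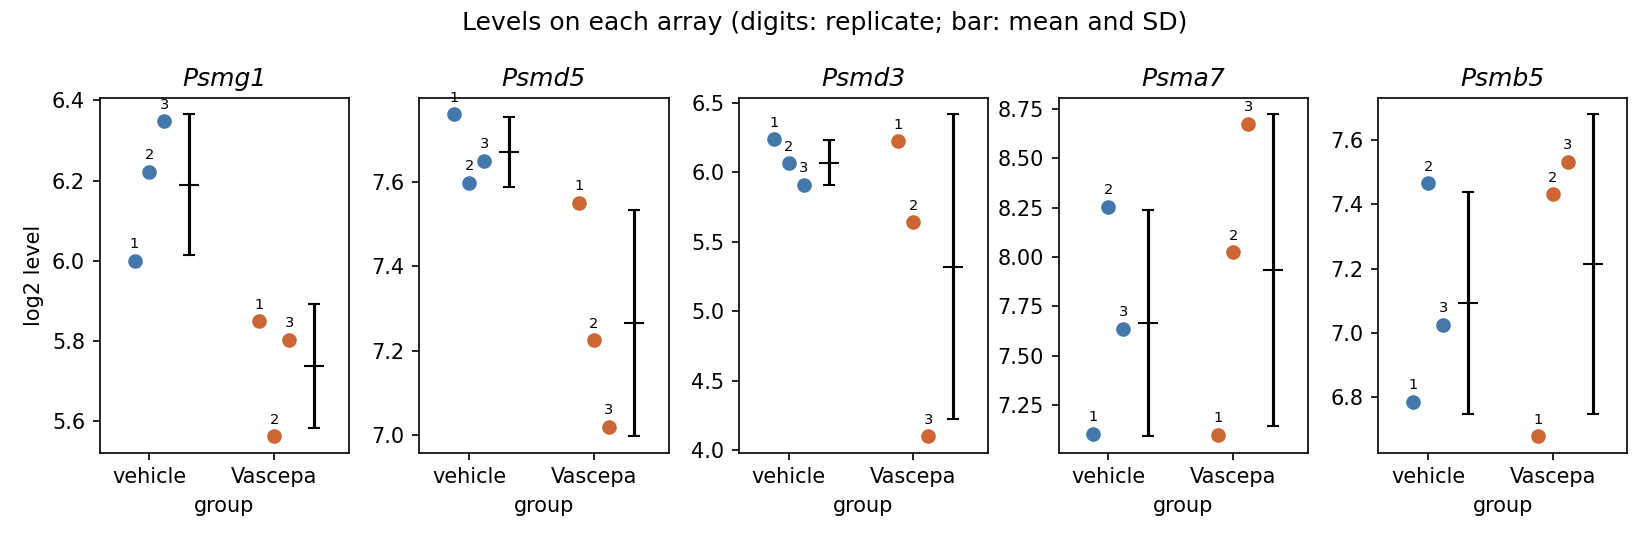
Log2 level of Psmg1, Psmd5, Psmd3, Psma7 and Psmb5 on each array by group, with the replicate number beside each point and the mean and SD of 3 arrays as a bar, on a separate vertical axis for each gene. The groups separate in Psmg1 and Psmd5. In Psmd3 Vascepa replicate 3 lies at 4.10, and in Psma7 and Psmb5 replicate 1 is lowest in both groups.

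Psmd5, Psmd9 and Psmd10 are chaperones of the regulatory base. Psmd5 read 7.76, 7.60 and 7.65 in vehicle and 7.55, 7.22 and 7.02 in Vascepa livers, with no overlap. The gap between the lowest vehicle and the highest Vascepa array was small beside the spread of the Vascepa arrays, and the difference was −0.41 ± 0.20 (SE; limma, unadjusted p = 0.0749, adjusted p = 0.976). It was −0.28 without Vascepa replicate 3. Psmd9 read 4.93, 5.48 and 5.19 in vehicle and 5.14, 5.62 and 5.47 in Vascepa livers, a difference of 0.21 ± 0.22. Psmd10, also known as gankyrin, ranged from 4.59 on vehicle replicate 1 to 6.36 on Vascepa replicate 3 and differed by 0.30 ± 0.49.

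Other caps can replace the regulatory particle, and Psmf1 inhibits the core. Psme3, the nuclear activator, read 6.13, 5.91 and 6.04 in vehicle and 5.99, 5.54 and 5.43 in Vascepa livers, a difference of −0.37 ± 0.21. Vascepa replicates 2 and 3 were below the vehicle range and Vascepa replicate 1 within it. Psme4, a large cap of nuclear proteasomes, read 7.80, 7.04 and 7.55 in vehicle and 7.90, 7.39 and 6.48 in Vascepa livers, a difference of −0.20 ± 0.37 that became 0.19 without Vascepa replicate 3. Psmf1 read 6.27, 6.11 and 6.35 in vehicle and 6.47, 5.99 and 5.55 in Vascepa livers, a difference of −0.24 ± 0.25 that became −0.011 without Vascepa replicate 3 and −0.47 without Vascepa replicate 1. All 3 genes had their lowest value on Vascepa replicate 3, as 38.8% of all genes tested had.

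The remaining members are not subunits of the liver's ordinary proteasome. Psma8, a paralogue of the testis, read 2.40, 2.89 and 2.71 in vehicle and 2.53, 3.32 and 3.00 in Vascepa livers, near the filter level. Its difference was 0.29 ± 0.25. Psmb11, a paralogue of the thymus, lay between 2.28 and 2.66 on all arrays and was not tested. Psmc3ip, a factor of meiotic recombination, read 2.66, 2.50 and 2.62 in vehicle and 2.58, 2.63 and 3.20 in Vascepa livers and passed the filter through Vascepa replicate 3. Psme3ip1, which binds Psme3, read 6.66, 6.22 and 6.67 in vehicle and 6.56, 6.01 and 5.20 in Vascepa livers, a difference of −0.59 ± 0.34. Vascepa replicate 3 was again the lowest, and without it the difference was −0.23, against −0.91 without Vascepa replicate 1.

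Promoters of members are shown because core subunits varied together across arrays while regulatory subunits went in both directions. RefSeq promoters of the mouse build GRCm38.p6 matched 36 of the 44 members, with 39 entries. The 2 core genes with the widest upward step and the 2 regulatory genes with the widest downward step from Vascepa replicate 1 to Vascepa replicate 3 among those with exactly 1 promoter entry are printed, with Psmg1. Each run is the 250 bases before the annotated start, read in the direction of the gene. Capitals mark CCAAT, the core of the NF-Y site, and TGANNNNGC, on either strand. TGANNNNGC, where N is any base, is a loose pattern for the antioxidant response element that NFE2L1 and NFE2L2 bind. It leaves all bases between TGA and GC free, so a match need not be such an element. The runs lie at chr2:180042465-180042714 (minus strand) for Psma7, chr11:97703184-97703433 (plus) for Psmb3, chr11:80428365-80428614 (plus) for Psmd11, chr1:86064369-86064618 (plus) for Psmd1 and chr16:95990961-95991210 (minus) for Psmg1.
Psma7: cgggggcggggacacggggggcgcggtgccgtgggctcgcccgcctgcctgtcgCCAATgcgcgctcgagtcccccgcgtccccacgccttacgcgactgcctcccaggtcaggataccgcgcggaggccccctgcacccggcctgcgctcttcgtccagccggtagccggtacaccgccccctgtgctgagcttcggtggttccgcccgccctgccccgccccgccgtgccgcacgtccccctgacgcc
Psmb3: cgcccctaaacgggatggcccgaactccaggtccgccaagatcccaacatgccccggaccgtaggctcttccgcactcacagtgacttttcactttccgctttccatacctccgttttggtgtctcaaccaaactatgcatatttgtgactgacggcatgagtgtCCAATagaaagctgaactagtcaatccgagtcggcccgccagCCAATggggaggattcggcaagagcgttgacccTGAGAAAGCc
Psmd11: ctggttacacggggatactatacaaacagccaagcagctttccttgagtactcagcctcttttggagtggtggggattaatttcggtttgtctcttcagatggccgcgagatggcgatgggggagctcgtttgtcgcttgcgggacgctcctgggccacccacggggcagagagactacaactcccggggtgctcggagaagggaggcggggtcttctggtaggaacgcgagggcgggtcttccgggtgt
Psmd1: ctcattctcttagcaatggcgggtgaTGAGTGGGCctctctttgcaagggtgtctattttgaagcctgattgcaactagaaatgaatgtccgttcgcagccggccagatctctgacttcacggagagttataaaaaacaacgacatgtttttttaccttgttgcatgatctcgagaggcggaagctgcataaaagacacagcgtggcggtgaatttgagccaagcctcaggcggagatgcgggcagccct
Psmg1: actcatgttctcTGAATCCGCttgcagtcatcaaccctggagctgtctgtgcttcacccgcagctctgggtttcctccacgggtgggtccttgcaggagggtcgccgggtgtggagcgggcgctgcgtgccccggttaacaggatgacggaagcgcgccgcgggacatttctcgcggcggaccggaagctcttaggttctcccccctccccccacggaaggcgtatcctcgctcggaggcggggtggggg

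Psmb3 has CCAAT beginning 85 and 43 bases before the start and TGANNNNGC beginning 10 bases before it. Psma7 has 1 CCAAT, 196 bases before the start. Psmd1 and Psmg1 have 1 TGANNNNGC each, 224 and 238 bases before the start, and Psmd11 has neither. The motifs do not overlap in these runs. CCAAT occurred in 6 of 11 core promoters (54.5%), 4 of 15 regulatory promoters (26.7%) and 33.8% of all 32851 promoters in the table. TGANNNNGC occurred in 5 of 11 core promoters (45.5%), 4 of 15 regulatory promoters (26.7%) and 35.2% of all promoters. The 11 core promoters came from 10 genes and the 15 regulatory promoters from 14, with Psma6 and Psmc2 counted more than once. Psma5 is among the core genes. Psmb1, Psmb2 and Psmb7 of the core and Psmc3, Psmd3 and Psmd7 of the regulatory particle have no entry. The shares are matches of letters in a short window and were not tested.

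Genes that feed or control the proteasome are given for comparison. Of 9 shuttle and unfoldase genes, which carry ubiquitinated proteins to the proteasome or extract them from complexes, 8 were tested. The mean of Vascepa livers was below that of vehicle livers in all 8, the median difference was −0.31, and 0 passed. Deviations from the vehicle mean had medians of 0.28, −0.30 and −0.0089 in vehicle and 0.25, −0.31 and −0.81 in Vascepa livers, so vehicle replicate 2 and Vascepa replicate 2 were alike and Vascepa replicate 3 was lowest. That array held the lowest value of 7 of the 8 genes, against 38.8% of all genes tested. Ubqln4, a ubiquilin shuttle, read 5.07, 4.51 and 4.84 in vehicle and 4.84, 3.89 and 3.53 in Vascepa livers (−0.72 ± 0.34), and Nsfl1c, a cofactor of the unfoldase Vcp, differed by −0.32 ± 0.24. Of 6 ubiquitin and activation genes, only Uba6, an activating enzyme, had a probe of its own, and it differed by −0.37 ± 0.51.

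Of 7 regulators of proteasome genes 6 were tested. Of these, 5 were lower in the mean and 0 passed, with a median of −0.42. Their median deviations were 0.24, −0.13 and −0.094 in vehicle and 0.12, −0.44 and −0.88 in Vascepa livers. Nfe2l1, the factor that raises proteasome subunit genes, read 6.11, 5.90 and 6.03 in vehicle and 6.12, 5.40 and 5.10 in Vascepa livers. Vascepa replicate 1 lay just above the vehicle arrays and the other Vascepa arrays below them, with a difference of −0.47 ± 0.27 (SE; limma, adjusted p = 0.976). Nfe2l2, its relative in antioxidant defence, and Keap1, which holds Nfe2l2 in check, differed by −0.36 ± 0.26 and 0.18 ± 0.19. Syvn1 and Sel1l, which extract proteins from the endoplasmic reticulum, differed by −0.65 ± 0.58 and −0.69 ± 0.62, and Ngly1, which processes the NFE2L1 protein, by −0.10 ± 0.18. Vascepa replicate 3 held the lowest value of 5 of the 6, Keap1 being the exception.

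Of 8 partners without a Psm name, 6 were tested, 3 higher and 3 lower with a median of −0.044, and 0 passed. Usp14, a deubiquitinase on the regulatory particle, read 6.32, 5.95 and 6.31 in vehicle and 6.37, 5.98 and 5.27 in Vascepa livers (−0.32 ± 0.29), low on Vascepa replicate 3. Akirin2, which brings proteasomes into the nucleus, differed by −0.25 ± 0.24. Pomp, the maturation factor of the core, read 7.41, 8.09 and 7.93 in vehicle and 7.30, 8.14 and 8.00 in Vascepa livers, low on both arrays numbered 1 like the core subunits, and was named after its values were seen.

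Psmb8, Psmb9 and Psmb10 replace catalytic subunits of the core in inflamed tissue, and Psme1 and Psme2 form an activator cap. All 5 were tested, 3 higher and 2 lower with a median of 0.12, and 0 passed. Psmb10 read 6.63, 6.66 and 6.86 in vehicle and 6.21, 6.39 and 6.91 in Vascepa livers (−0.22 ± 0.22). Psmb8 read 5.79, 6.20 and 6.31 in vehicle and 5.78, 6.41 and 6.56 in Vascepa livers (0.15 ± 0.26). All 5 had their highest value on Vascepa replicate 3, as 23.0% of all genes tested had. Lymphocyte markers, of which 4 of 7 were tested, had medians between −0.16 and 0.15 on the vehicle arrays and between −0.41 and 0.0014 on the Vascepa arrays. Kupffer cell markers, all 10 tested, lay between −0.078 and 0.063 on the vehicle arrays and between −0.48 and −0.13 on the Vascepa arrays. The part of such cells in these 5 genes was not tested.

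Genomic span is given for both particles, and its part in the contrast between them was not tested. The median span was 12000 bases for the 12 core genes and 13163 bases for the 17 regulatory genes. Across the 29 subunits the step from Vascepa replicate 1 to Vascepa replicate 3 had a rank correlation with span of −0.13, and across 13434 genes with a span it was −0.37. These are correlations across genes of the same 2 arrays, given as a description.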

How the data were processed

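The authors deposited log2 expression values, 1 per probe (transcript cluster) and array, made with Affymetrix Expression Console and RMA per the submitters' processing notes. RMA corrects the background, quantile-normalizes arrays and summarises probes. For their versions and the genome build: not given in the sources used here. Of 41345 probes, 23521 had exactly 1 symbol in the platform annotation, 1814 had several and 16010 had none. The median of the deposited values over all probes was 2.62, 2.67 and 2.62 on vehicle replicates 1, 2 and 3. On Vascepa replicates 1, 2 and 3 it was 2.63, 2.70 and 2.81. All genes were fitted together by lmFit and eBayes of limma 3.58.1 (R 4.3.3), 3 arrays against 3 and no covariate, with Benjamini-Hochberg adjustment over the 13493 genes tested. The procedure was tested on simulated data with noise drawn independently for each gene, without shifts shared by the genes of an array. At the adjusted threshold it recovered 26.35% of log2 differences of 1 and 75.15% of differences of 2. Smaller differences were not simulated. Differences are Vascepa minus vehicle, and ± is limma's moderated standard error unless SD is stated. Scan dates were not known, and no batch was tested. Values on every array are given for the catalytic subunits, for the 2 genes of smallest p in each group of members, for Psme3, Psme4 and Psmf1, and for members at an unadjusted p under 0.05. In other lists the 2 of smallest p are named, and all regulators. The members and lists were chosen with earlier results of these data known. The number of arrays limits the precision.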

Additional observations from a re-analysis of the deposited data

How the results depend on the processing

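No member passed the adjusted threshold with no filter, a filter at the 75th percentile, centred arrays, quantile normalization again, averaged probes, a trended prior, the small RNA covariate, the replicate block or any array left out. Array weights gave 4100 genes (30.4%) when Vascepa replicate 2 weighed 39.5 and no other array above 2.33, among them 9 of 42 members, 1 in the core and 0 in the regulatory particle; the weight estimation stopped before it converged. The small RNA covariate gave 3 genes. The count of members at an unadjusted p under 0.05, 1 in the report, was 0 with the 75th percentile filter, quantile normalization again, the trended prior and the replicate block, 16 with array weights and 0 to 5 with an array left out. Deviations from the group mean correlated at 0.61, 0.11 and −0.13 between same-numbered arrays, and at −0.63 to 0.57 between arrays of unlike number. Deviations within a group sum to 0, so these correlations cannot decide whether the replicate numbers pair the arrays. The replicate block gave 0 genes past the adjusted threshold. The regulatory median was −0.15 with centred arrays, where the median over all genes tested was −0.14, and −0.13 to −0.010 with an array left out. The core median ranged from −0.11 to 0.31, the core minus the regulatory median from −0.099 to 0.39 and the median of all members from −0.088 to 0.087 with an array left out. Differences that changed sign, each within its standard error of 0 in the report, did so with each array centred on its median (Psma3 −0.033, Psmb2 −0.017, Psmc3 −0.034, Psmd4 −0.065, Psmg2 −0.0024); with quantile normalization again (Psma1 0.041, Psmb4 0.065, Psmb6 0.0397, Psmc1 0.019, Psmd14 0.051, Psmd6 0.025); with the mean of a gene's probes (Psmg2 −0.0024); with array weights (Psma1 0.15, Psmb4 0.17, Psmb6 0.11, Psmb7 0.028, Psmd14 0.13, Psmd6 0.064, Psmd8 0.0037); with the small RNA level as a covariate (Psma2 −0.10, Psma3 −0.10, Psma6 −0.15, Psma7 −0.15, Psmb1 −0.11, Psmb2 −0.11, Psmb3 −0.014, Psmb5 −0.12, Psmc6 −0.027, Psmd10 −0.13, Psmd11 0.011, Psmd13 −0.036, Psmd4 −0.069, Psmd7 0.018, Psme4 0.14). With single arrays left out, these ranges crossed 0: Psma1 −0.15 to 0.15, Psma2 −0.12 to 0.37, Psma3 −0.10 to 0.21, Psma6 −0.15 to 0.43, Psma7 −0.10 to 0.68, Psmb1 −0.12 to 0.49, Psmb2 −0.0802 to 0.25, Psmb3 −0.033 to 0.47, Psmb4 −0.19 to 0.15, Psmb5 −0.037 to 0.39, Psmb6 −0.18 to 0.19, Psmb7 −0.20 to 0.0022, Psmc2 −0.22 to 0.027, Psmc3 −0.054 to 0.0905, Psmc6 −0.0024 to 0.23, Psmd10 −0.17 to 0.74, Psmd12 −0.21 to 0.00051, Psmd13 −0.048 to 0.28, Psmd14 −0.16 to 0.10, Psmd4 −0.10 to 0.10, Psmd6 −0.17 to 0.014, Psmd7 −0.15 to 0.019, Psme4 −0.52 to 0.19, Psmg2 −0.0058 to 0.15, Psmg4 −0.41 to 0.031. The causes were not tested. The 2 dim probes of Psma5 limit what can be said of that subunit.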
